A study of Bos taurus with 6 samples.

Results

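Adipokines are signalling proteins that fat cells release, and their receptors sit on muscle, blood vessel and brain cells. The 10 genes described here are 6 that encode secreted or fat cell proteins (ADIPOQ, RBP4, LEP, CFD, ADIG and NAMPT) and 4 that encode receptors (ADIPOR1, ADIPOR2, CDH13 and LEPR). They were taken by name from the 17986 genes named in the transcript files, with earlier results of these data known, and no threshold on their levels was applied. Their RNA was measured by RNA-Seq in the longissimus dorsi, the long muscle of the back, of 3 Shandong black cattle and 3 Luxi cattle. All 6 animals were 18 months old, and each gave 1 library. The animals of each breed came from a different company, the labels give no treatment, and they do not state the sex of the animals. Breed, source and any other difference between these 2 groups of 3 therefore cannot be told apart, and p-values measure the spread between these animals only.

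Adiponectin, the product of ADIPOQ, is made by fat cells and circulates in assemblies of many subunits. It acts through the receptors ADIPOR1 and ADIPOR2, which act on AMP-activated protein kinase and fatty acid oxidation in muscle, and its large assemblies bind T-cadherin, the product of CDH13. Leptin, the product of LEP, reports fat stores to the brain through its receptor LEPR. In muscle, the fat cells that make these proteins lie between the fibres as marbling, and the receptors belong to fibres, vessel walls and other cells. Bulk RNA from such a tissue cannot tell fewer cells of a type from less RNA per cell.

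The unit is FPKM, fragments per kilobase of exon scaled to the mapped fragments of the library, so levels can be set side by side between genes. A gene was tested where its mean FPKM was at least 1 in at least 1 breed, which 9 of the 10 genes and 9767 genes in all met, and LEPR was below it. A gene was called where limma gave a Benjamini-Hochberg adjusted p under 0.05 over all genes tested and a log2 fold change of FPKM + 1 of at least 1 in size. Of the 9 genes, 2 were called, ADIPOQ and RBP4, and both were lower in Luxi cattle. The share called among all genes tested was 2.58% in either direction and 1.03% lower in Luxi cattle. The breeds did not overlap in 6 of the 9 genes, lower in Luxi cattle in 4 and higher in 2, against 29.2% of all genes tested, 9.14% lower and 20.0% higher. An unadjusted limma p under 0.05 was reached by 5 of the 9 (ADIPOQ, RBP4, LEP, ADIPOR2 and ADIG) and by 21.9% of all genes tested. LEP and ADIG met the filter only through Shandong black cattle, where they were higher. Their means were 1.18 and 1.28 FPKM there and 0.0396 and 0.330 in Luxi cattle, so their place in these counts depends on the filter. The median log2 fold change was -0.63 over the 9 genes and 0.13 over all genes tested, and the latter moved to 0.02 with size factors.

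**Figure D1:**
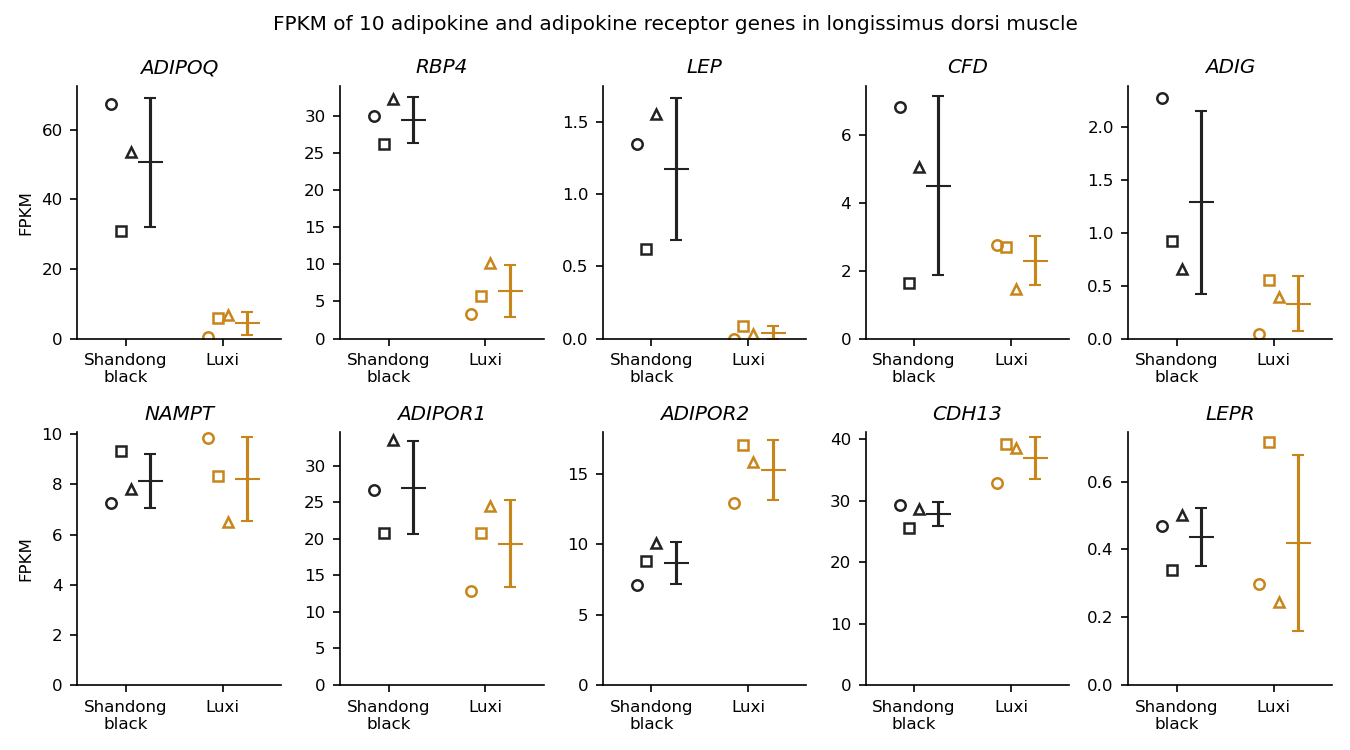
FPKM (y axis, from 0, a separate scale in each panel) of the 10 genes in each animal. Circles, squares and triangles are replicates 1, 2 and 3, and the bars are the mean ± SD (n = 3, the lower end not drawn below 0). ADIPOQ, RBP4, LEP and ADIG lie lower in each Luxi animal than in each Shandong black animal, ADIPOR2 and CDH13 lie higher, and the breeds overlap in CFD, NAMPT, ADIPOR1 and LEPR.

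The libraries held 14.1 to 14.6 gigabases of aligned sequence, estimated from coverage and FPKM, in Shandong black cattle and 17.5 to 18 in Luxi cattle, so the Luxi libraries were deeper. The first principal component, with 43.7% of the variance, separated the breeds, and Luxi replicate 1 stood apart on the second, with 26.5%, at -50.5 against 2.40 to 22.1 for the other animals. Some results, among them those of ADIPOQ, RBP4, ADIPOR1 and ADIPOR2, are therefore also given without that animal. The tissue label held, since the summed FPKM of 10 skeletal muscle genes was 24241 or more in every library. XIST, the RNA of the inactive X chromosome, was at 10.7, 4.83 and 14 FPKM in the Shandong black replicates 1, 2 and 3, was listed at 0 in 2 Luxi animals and was at 0.207 in the third. It was called lower in Luxi cattle (log2 fold change -3.24, adjusted p = 0.0103 by limma). The labels do not state the sex, and a difference in sex along these XIST levels could not be told apart from breed. The part of XIST or of sex in the results was not tested.

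ADIPOQ was one of the 2 called genes. It lies at chr1:80414393-80427659 of ARS-UCD1.2 on the minus strand, with 3033 exonic bases. Its FPKM was 67.4, 30.8 and 53.6 in the Shandong black replicates 1, 2 and 3, and 0.576, 5.76 and 6.76 in the Luxi replicates. The lowest Shandong black animal was 4.56 times above the highest Luxi animal, and Luxi replicate 1 was far below the other two. About 179 reads of 150 bases lay behind the value of Luxi replicate 1, against 7812 to 16445 in Shandong black cattle. The ratio of the means was 11.6, and the log2 fold change was -3.50 (± 0.62 standard error, SE, adjusted p = 0.0362 by limma), with an exact two-sided permutation p of 0.1, the smallest that 3 animals against 3 can give. Without Luxi replicate 1 it was -2.76 (adjusted p = 0.0161 by limma). Leaving out any of the other 5 animals took the limma adjusted p to between 0.0580 and 0.146 and ended the call. With all 6 animals the call was also lost with a pseudocount of 0.1, with limma voom and without a filter (adjusted p = 0.0604, 0.0594 and 0.103 by limma). A 3-exon transcript that starts at the upstream end of the gene carried 85.2% or more of the ADIPOQ level in every animal, and the other 2 annotated transcripts together carried the rest.

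RBP4 encodes the plasma carrier of retinol, which liver and fat cells secrete. It lies at chr26:14896203-14902404 on the minus strand. Its FPKM was 30.0, 26.1 and 32.2 in the Shandong black replicates and 3.30, 5.69 and 10.2 in the Luxi replicates. The Shandong black animals lay close together, the Luxi animals were spread more widely for their level, and the breeds did not overlap. Shandong black cattle averaged 29.4 ± 3.07 and Luxi cattle 6.39 ± 3.50 (SD, n = 3 each), a ratio of 4.61 and a log2 fold change of -2.15 (± 0.34 SE, adjusted p = 0.0289 by limma). It was called without Luxi replicate 1 or without Luxi replicate 3 (adjusted p = 0.0199 and 0.0260 by limma), but not when any of the other 4 animals was left out, where the limma adjusted p reached 0.136, nor without a filter (adjusted p = 0.0796 by limma).

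The ratio of ADIPOQ to RBP4 also differed between the breeds. It was 2.25, 1.18 and 1.67 in the Shandong black replicates and 0.175, 1.01 and 0.664 in the Luxi replicates, so ADIPOQ was the more abundant of the pair in every Shandong black animal. In Luxi replicate 2 the levels were close to each other, and in the other 2 Luxi animals RBP4 was the more abundant.

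LEP lies at chr4:92436837-92453660 on the plus strand. Its FPKM was 1.35, 0.623 and 1.56 in the Shandong black replicates, was listed at 0 in Luxi replicate 1 and was 0.0881 and 0.0307 in Luxi replicates 2 and 3. Every Luxi animal was below every Shandong black animal, by 7.08 times between the nearest pair. These levels stand for about 178 to 444 reads in Shandong black cattle and for 31.0 and 10.7 reads in Luxi replicates 2 and 3. The ratio of the means was 29.7, the largest of the 10 genes, while the log2 fold change of FPKM + 1 was -1.04 (standard error 0.22), because an added 1 outweighs levels as low as these. LEP was not called (adjusted p = 0.0562 by limma). It passed the threshold with TPM, with size factors, with quantile normalization, over the gene length and without Shandong black replicate 2.

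ADIG encodes adipogenin, a small protein of fat cells, and lies at chr13:67456834-67466702 on the plus strand. Its FPKM was 2.27, 0.921 and 0.659 in the Shandong black replicates and 0.0451, 0.554 and 0.392 in the Luxi replicates. All Luxi animals were lower, but the nearest animals of the 2 breeds differed by only 1.19 times, and Luxi replicate 1 rested on 4 reads. The log2 fold change was -0.74 (standard error 0.30) and was not called (adjusted p = 0.207 by limma).

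CFD encodes adipsin, the serine protease that activates factor B in the alternative complement pathway, and lies at chr7:43416267-43418803 on the plus strand. Its FPKM was 6.82, 1.62 and 5.06 in the Shandong black replicates and 2.74, 2.68 and 1.45 in the Luxi replicates. The breeds overlapped, since Shandong black replicate 2 was below 2 of the Luxi animals. The log2 fold change was -0.63 (standard error 0.41, 95% interval -1.58 to 0.32, adjusted p = 0.402 by limma).

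NAMPT encodes the enzyme that makes nicotinamide mononucleotide in the recycling of NAD, and its secreted form is known as visfatin. It is made by most cell types and lies at chr4:47321227-47361906 on the minus strand. The FPKM was 7.27, 9.32 and 7.80 in the Shandong black replicates and 9.83, 8.34 and 6.50 in the Luxi replicates. The Luxi animals held both the highest and the lowest value, and the log2 fold change was 0.01 with a 95% interval of -0.48 to 0.49 (adjusted p = 0.991 by limma). Its sign was negative under every other scaling tried.

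**Figure D2:**
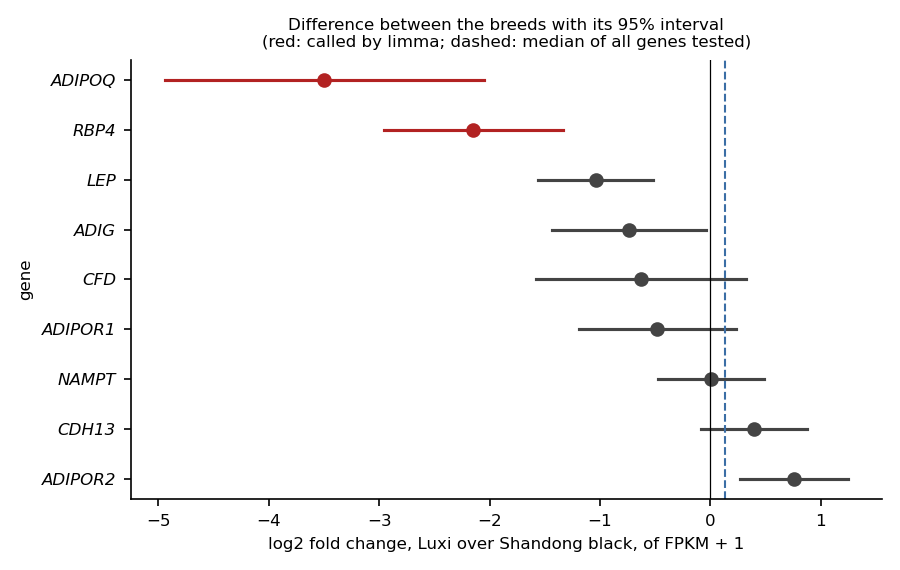
Log2 fold change of FPKM + 1, Luxi over Shandong black (x axis), with its 95% interval from limma for the 9 genes tested (y axis). The called genes ADIPOQ and RBP4 are in red at -3.50 and -2.15, the solid line is 0 and the dashed line is the median of all genes tested, 0.13.

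The receptor genes had log2 fold changes of smaller size than ADIPOQ and RBP4, and none of the 3 tested was called. ADIPOR1, the adiponectin receptor that is the more abundant in muscle, lies at chr16:79870209-79883997 on the plus strand. Its FPKM was 26.7, 20.7 and 33.5 in the Shandong black replicates and 12.8, 20.7 and 24.5 in the Luxi replicates. Replicate 2 of both breeds stood at the same level, so the breeds overlapped. The log2 fold change was -0.48 (95% interval -1.19 to 0.23, adjusted p = 0.388 by limma). Without Luxi replicate 1 it was -0.22 (adjusted p = 0.558 by limma).

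ADIPOR2, the second adiponectin receptor, lies at chr5:108184042-108227652 on the plus strand and was higher in each Luxi animal. Its FPKM was 7.11, 8.77 and 10.1 in the Shandong black replicates and 12.9, 17.1 and 15.8 in the Luxi replicates. The breeds did not overlap, but the log2 fold change of 0.76 (standard error 0.21, 95% interval 0.27 to 1.24) was not called (adjusted p = 0.101 by limma). With all aligned bases spread over the whole exon length of the gene, Luxi replicate 1 at 9.82 came just under Shandong black replicate 3 at 9.89. Without Luxi replicate 1 the log2 fold change was 0.86 (adjusted p = 0.0450 by limma), under the size needed for a call.

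The balance of the receptors differed between the breeds. The ratio of ADIPOR2 to ADIPOR1 was 0.267, 0.423 and 0.301 in the Shandong black replicates and 1.01, 0.822 and 0.647 in the Luxi replicates. Every Shandong black animal had more ADIPOR1 than ADIPOR2, as had Luxi replicates 2 and 3, and Luxi replicate 1 had about equal levels. The means were 0.330 ± 0.0819 (SD, n = 3) and 0.826 ± 0.180 (SD, n = 3), a log2 difference of 1.33 (exact two-sided permutation p = 0.1, the smallest possible). Depth and library scaling cancel in this ratio, since both genes are read in the same library.

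ADIPOR2 has a long annotated transcript and a shorter one that starts downstream, within the gene. The shorter one carried 8.88%, 20.9% and 3.41% of the ADIPOR2 level in the Shandong black replicates and 42.8%, 25.7% and 11.1% in the Luxi replicates. The breeds overlapped, and the difference of the means of 15.5 percentage points fell to 7.36 without Luxi replicate 1. StringTie divides the reads that both transcripts share, so these shares are estimates.

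CDH13 lies at chr18:9138128-10154233 on the plus strand. Its FPKM was 29.3, 25.5 and 28.7 in the Shandong black replicates and 33.0, 39.3 and 38.6 in the Luxi replicates. The breeds did not overlap, but the log2 fold change was only 0.39 (95% interval -0.09 to 0.88, adjusted p = 0.309 by limma), and 20.0% of all genes tested were also higher in every Luxi animal. CDH13 is known from vessel walls, and the summed FPKM of 7 endothelial markers was 22.7 to 24.0 in Shandong black cattle and 28.5 to 80.6 in Luxi cattle. None of the 7 was called, 3 of the 7 were higher in every Luxi animal, and none was at 0. The endothelial sum was highest in Luxi replicate 1, where CDH13 was the lowest of the Luxi animals. The part of the endothelial markers in the CDH13 difference was not tested.

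LEPR was the lowest of the 10 genes in Shandong black cattle and was too low in both breeds to be tested. It lies at chr3:79744032-79838007 on the minus strand, with 5221 exonic bases in 20 blocks. The sum of its transcripts was 0.470, 0.339 and 0.501 FPKM in the Shandong black replicates and 0.298, 0.717 and 0.244 in the Luxi replicates. On this measure Luxi replicate 2 was the highest of all animals, and the log2 fold change was -0.03.

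The LEPR value depended on how StringTie had assembled the gene. In the Shandong black animals and in Luxi replicate 1 the level came from annotated transcripts that span the gene. In Luxi replicate 2 no annotated transcript was reported, and the gene was instead assembled as 2 separate pieces of 1155 and 2459 bases, whose FPKM of 0.20 and 0.517 add up although each covers a different part. In Luxi replicate 3 only 1 piece of 420 bases over 4 exons was reported, with an FPKM of 0.244. The reads behind these values were about 173 to 251 in Shandong black cattle, 185 and 176 in Luxi replicates 1 and 2, and 12 in Luxi replicate 3.

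With the aligned bases spread over the whole exon length, a measure added after the values were seen, LEPR was at 0.470, 0.339 and 0.499 in the Shandong black replicates and at 0.296, 0.288 and 0.0196 in the Luxi replicates. All 3 Luxi animals were then below all 3 Shandong black animals (exact two-sided permutation p = 0.1), and the log2 fold change was -0.26. Among the 10 genes only LEPR and ADIPOR2 changed between overlapping and not overlapping with this measure.

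**Figure D3:**
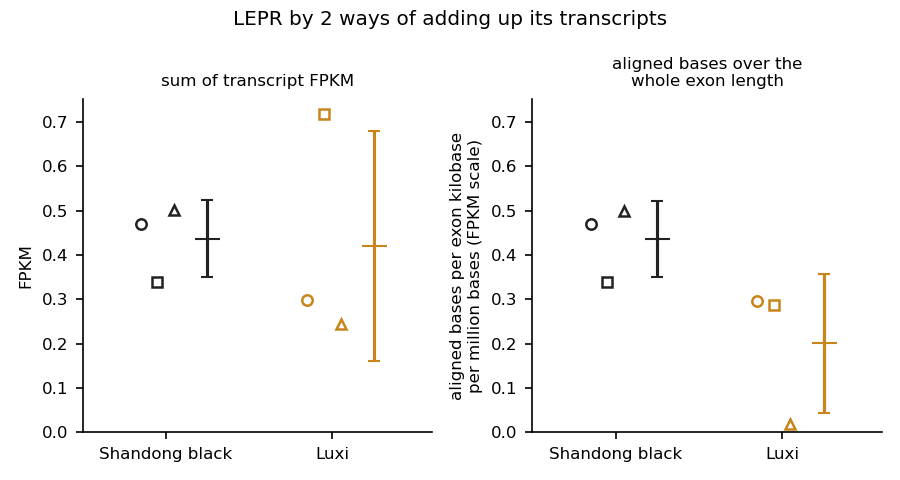
LEPR level (y axis, FPKM scale) in each animal as the sum of its transcripts (left) and as aligned bases over the whole exon length (right). Symbols are replicates and bars the mean ± SD (n = 3). Luxi replicate 2 drops from 0.717 to 0.288 and Luxi replicate 3 from 0.244 to 0.0196, while the Shandong black animals stay in place.

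The order of the levels was not the same in the breeds. In Shandong black cattle ADIPOQ, RBP4, CDH13 and ADIPOR1 led, with means of 50.6, 29.4, 27.8 and 27.0 FPKM, and the ranges of neighbours in this order overlapped. ADIPOR2 and NAMPT followed with overlapping ranges, then CFD, ADIG and LEP, each overlapping with the next, and last LEPR. In Luxi cattle CDH13 led alone with a mean of 36.9, followed by ADIPOR1 and ADIPOR2, whose ranges overlapped. NAMPT, RBP4, ADIPOQ and CFD came next, each overlapping with its neighbour, and LEPR, ADIG and LEP were last, also with overlapping ranges. ADIPOQ was above 95.6% of the genes tested by its mean in Shandong black cattle and above 53.6% in Luxi cattle.

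Since several of these genes are made by fat cells, the other fat cell genes were measured beside them. Of 15 fat cell markers 12 were tested and 5 were called, all lower in Luxi cattle, where 1.03% of all genes tested were called lower. They were PLIN1 and CIDEC, which coat lipid droplets, FABP4, which carries fatty acids, LIPE, the hormone-sensitive lipase, and TRARG1, a partner of the glucose transporter of fat cells. PLIN1 and TRARG1 met the filter only through Shandong black cattle, with Luxi means of 0.889 and 0.708 FPKM. PLIN1, for example, was at 13.4, 17.5 and 12.9 FPKM in the Shandong black replicates and at 0.390, 1.15 and 1.12 in the Luxi replicates (log2 fold change -3.06, adjusted p = 0.00679 by limma). In 8 of the 12 every Luxi animal was lower, as in 9.14% of all genes tested, while GPD1, which muscle fibres also make, was at 31.4 to 54.7 in Shandong black cattle and at 76.2 to 182 in Luxi cattle. The 5 calls became 1 without Shandong black replicate 1 or 3, 3 without Luxi replicate 2 and 8 without Luxi replicate 1, of which 7 were lower and GPD1 was higher. The summed FPKM of the 15 was 281 to 332 in Shandong black cattle and 147 to 289 in Luxi cattle and overlapped. TRARG1 was listed at 0 in Luxi replicate 1, LGALS12 in replicate 2 of both breeds and PCK1 in Luxi replicate 2.

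Relative to the mean log2 level of these 15 markers in the same animal, ADIPOQ was lower in Luxi cattle by a difference of -2.26 and RBP4 by -0.91, both without overlap between the breeds (exact permutation p = 0.1 each, 0.25 after adjustment over the 5 genes compared). LEP, ADIG and CFD differed by 0.20, 0.50 and 0.61 with overlapping animals (exact permutation p = 0.6, 0.3 and 0.4). With PLIN1 alone in place of the 15 markers the ADIPOQ difference shrank to -0.44 and the RBP4 difference turned to 0.92. The LEP difference turned to -1.35 with a pseudocount of 0.1, so RBP4 and LEP had no fixed direction. The size for ADIPOQ depended on the markers used, and its plain ratios to single markers, given next, held no direction.

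Ratios of FPKM to single fat cell genes show the same dependence. ADIPOQ over PLIN1 was 5.03, 1.76 and 4.15 in the Shandong black replicates and 1.48, 4.99 and 6.02 in the Luxi replicates. ADIPOQ over FABP4 was 0.630 to 0.863 in Shandong black cattle and 0.603 to 1.52 in Luxi cattle. Both overlapped, with the highest and the lowest value in Luxi animals, so ADIPOQ had no direction relative to PLIN1 or FABP4. RBP4 over PLIN1 was 2.24, 1.5 and 2.49 in the Shandong black replicates and 8.45, 4.93 and 9.07 in the Luxi replicates. RBP4 was thus higher in every Luxi animal relative to PLIN1, although its own level was lower in every Luxi animal.

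**Figure D4:**
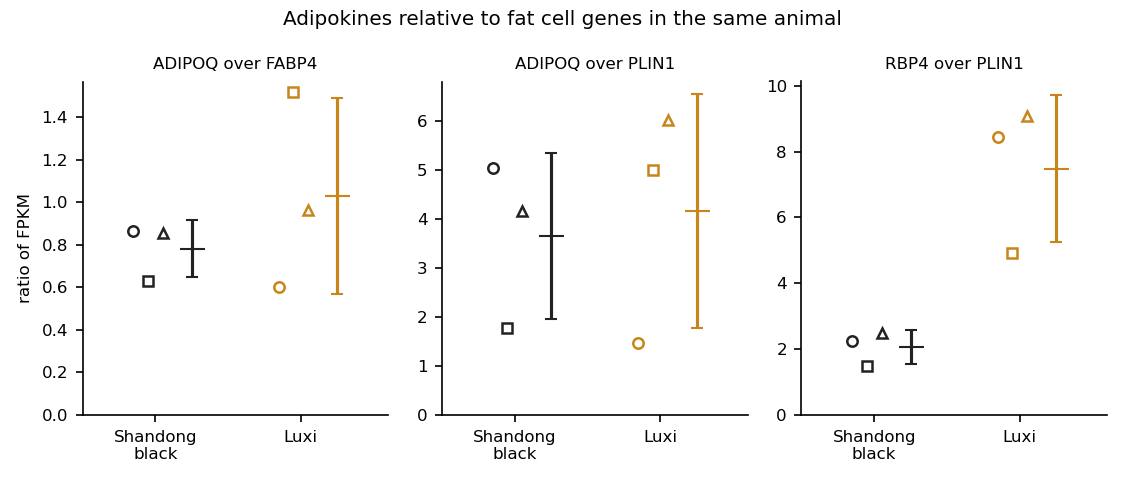
Ratio of FPKM (y axis, from 0, a separate scale in each panel) of ADIPOQ to FABP4, of ADIPOQ to PLIN1 and of RBP4 to PLIN1 in each animal. Symbols are replicates and bars the mean ± SD (n = 3). The ADIPOQ ratios overlap between the breeds, while RBP4 over PLIN1 is 1.5 to 2.49 in Shandong black cattle and 4.93 to 9.07 in Luxi cattle.

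The genes with the pattern over the 6 animals most like that of ADIPOQ were FABP4, CSRP3, TRARG1, HBEGF and CIDEC. Their root mean square difference from ADIPOQ in centred log2(FPKM + 1) was 0.34 to 0.54, against a median of 1.99 over 9758 genes. The genes were centred but not scaled, so a gene that did not vary at all would also lie far from ADIPOQ. The median thus largely reflects the spread of ADIPOQ itself, and likewise for ADIPOR2. FABP4, TRARG1 and CIDEC are fat cell genes. CSRP3, the muscle LIM protein of slow fibres and heart, was at 3213 to 3309 FPKM in Shandong black cattle and 146 to 627 in Luxi cattle (adjusted p = 0.0308 by limma), and HBEGF encodes a growth factor. CSRP3 stood second in this order, between FABP4 and TRARG1. The summed FPKM of 7 slow fibre genes was 25846 to 31973 in Shandong black cattle and 3214 to 13329 in Luxi cattle. Of the 7, 1 was called (TNNI1, lower in Luxi cattle), where 1.03% of all genes tested were called lower. In 4 of the 7 every Luxi animal was lower, as in 9.14% of all genes tested, and none was at 0. MYL2 was the largest term of this sum in every animal, and MYL3 went the other way, at 13.1 to 46.4 against 63.5 to 1180 (log2 fold change 3.33, adjusted p = 0.118 by limma). The part of the slow fibre genes in the ADIPOQ pattern was not tested. The genes most like ADIPOR2 were RAB5C, RGMA, ZFHX4, GRAMD1A and RBM33, at 0.04 to 0.09 against a median of 0.46, and none of these 5 was called.

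Around the members, 92 genes of adipokine signalling were listed by role, 81 of them were found in the files and 69 were tested. Only 2 of the 69 were called, both higher in Luxi cattle, where 1.55% of all genes tested were called higher. PRKAA2, the catalytic subunit of AMP-activated protein kinase that is abundant in muscle, was at 2.76, 3.8 and 4.04 FPKM in the Shandong black replicates and at 7.62, 13 and 8.48 in the Luxi replicates (log2 fold change 1.22, standard error 0.24, adjusted p = 0.0460 by limma). NMNAT2, which completes NAD downstream of NAMPT, was listed at 0 in Shandong black replicate 1, was 0.292 and 0.229 in the other 2, and was 1.67, 1.01 and 1.61 in the Luxi replicates (log2 fold change 1.05, standard error 0.20, adjusted p = 0.0450 by limma). NMNAT2 met the filter only through Luxi cattle, where it was higher, with a mean of 1.43 FPKM against 0.174, so its call depends on the filter. In both PRKAA2 and NMNAT2 every Luxi animal was above every Shandong black animal. No gene of this list was called when any single animal other than Luxi replicate 1 was left out, and 9 were called (7 higher and 2 lower in Luxi cattle) without that animal. With size factors or with quantile normalization neither PRKAA2 nor NMNAT2 was called, and the calls were 3 others, all lower in Luxi cattle, namely AGT, CPT1B and SFRP5, of which AGT and CPT1B are named after their values were seen. With TPM 2 were called higher, PRKAA2 among them, and 2 lower. The list thus had no direction that held under every scaling. Of the 69 genes, 45 had a log2 fold change above 0, as did 6110 of the 9767 genes tested. The breeds did not overlap in 11 of the 69 that were higher and 7 that were lower in Luxi cattle, beside 20.0% and 9.14% of all genes tested. These counts include genes that met the filter through 1 breed only, such as APLNR, higher, and CRABP2, lower in Luxi cattle.

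Downstream of the adiponectin receptors, 1 of 17 genes was called, PRKAA2, beside 2.58% of all genes tested in either direction. At that share, lists as short as the roles here and below can hold no call. A role without a call is thus not set apart from all genes. PPARGC1A, the coactivator of mitochondrial genes, was at 1.70 to 2.07 FPKM in Shandong black cattle and at 44.5, 5.18 and 7.14 in the Luxi replicates, without overlap, but the spread of the Luxi animals left the log2 fold change of 2.19 uncalled (adjusted p = 0.127 by limma). PRKAG3 and PRKAG1, regulatory subunits of the same kinase, had log2 fold changes of 1.64 and 1.11 with overlapping breeds (adjusted p = 0.211 and 0.350 by limma).

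Of the 13 partners and targets of the leptin receptor none was called. IRS1, an adaptor of insulin signalling, was at 2.67 to 3.07 FPKM in Shandong black cattle and at 4.57 to 11.8 in Luxi cattle, and PIK3R1, the regulatory subunit of phosphoinositide 3-kinase, was at 6.97 to 7.61 and at 11.1 to 15.1. Neither overlapped between the breeds, and the log2 fold changes were 1.29 and 0.81 (adjusted p = 0.0815 and 0.0674 by limma). SOCS3, which limits leptin signalling, had a log2 fold change of 0.69 with Luxi replicate 1 at 0.484 and the other 2 Luxi animals at 3.98 and 7.44 (adjusted p = 0.509 by limma).

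None of the 6 genes of adiponectin assembly and secretion was called. ERP44, which holds adiponectin back in the secretory pathway, and PLOD1, a lysyl hydroxylase, had log2 fold changes of 0.41 and 0.40 with overlapping breeds (adjusted p = 0.516 and 0.409 by limma). GSTK1 was lower in every Luxi animal, at 5.10 to 6.21 FPKM against 6.32 to 9.09, with a log2 fold change of -0.35 (adjusted p = 0.318 by limma).

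Among the 5 tested retinol carriers and receptors, CRABP2, a carrier of retinoic acid within the cell, was at 1.62 to 3.85 FPKM in Shandong black cattle and at 0.0438 to 1.07 in Luxi cattle, without overlap and not called (log2 fold change -1.31, adjusted p = 0.0815 by limma). The nuclear receptors RXRA and RARB had log2 fold changes of 0.86 and 0.55 (adjusted p = 0.160 and 0.234 by limma). Beside NMNAT2, the NAD genes with the largest differences were NMRK2, a nicotinamide riboside kinase of muscle, at 51.1 to 189 FPKM against 228 to 838 (log2 fold change 2.1, adjusted p = 0.118 by limma), NMNAT1 at 0.45 and NAPRT at -0.40 on the log2 fold change scale. Neither of the last 2 was called (adjusted p = 0.287 and 0.477 by limma).

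All 5 tested genes of the alternative complement pathway, in which CFD acts, had log2 fold changes below 0 and none was called. CFB, the substrate of CFD, was at 1.18 to 3.13 FPKM in Shandong black cattle and at 0.469 to 0.908 in Luxi cattle, without overlap (log2 fold change -0.75, adjusted p = 0.155 by limma). CD46 and CD55, which protect cells from complement, had log2 fold changes of -0.75 and -0.36 with overlapping breeds (adjusted p = 0.271 and 0.550 by limma).

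None of the 17 tested genes among the other adipokines and their receptors was called. SFRP5, a secreted inhibitor of Wnt signalling made by fat cells, was at 5.88, 2.91 and 5.49 FPKM in the Shandong black replicates and at 0.204, 1.42 and 1.34 in the Luxi replicates, with a log2 fold change of -1.56 (adjusted p = 0.0589 by limma). APLNR, the apelin receptor of vessels, was at 0.244 to 0.286 against 0.713 to 3.45 (log2 fold change 1.04, adjusted p = 0.136 by limma). ASIP, the agouti signalling protein, was listed at 0 in all 3 Shandong black animals and in Luxi replicate 3, and was at 9.04 and 0.147 in Luxi replicates 1 and 2 (adjusted p = 0.426 by limma), so 1 animal carried its level.

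**Figure D5:**
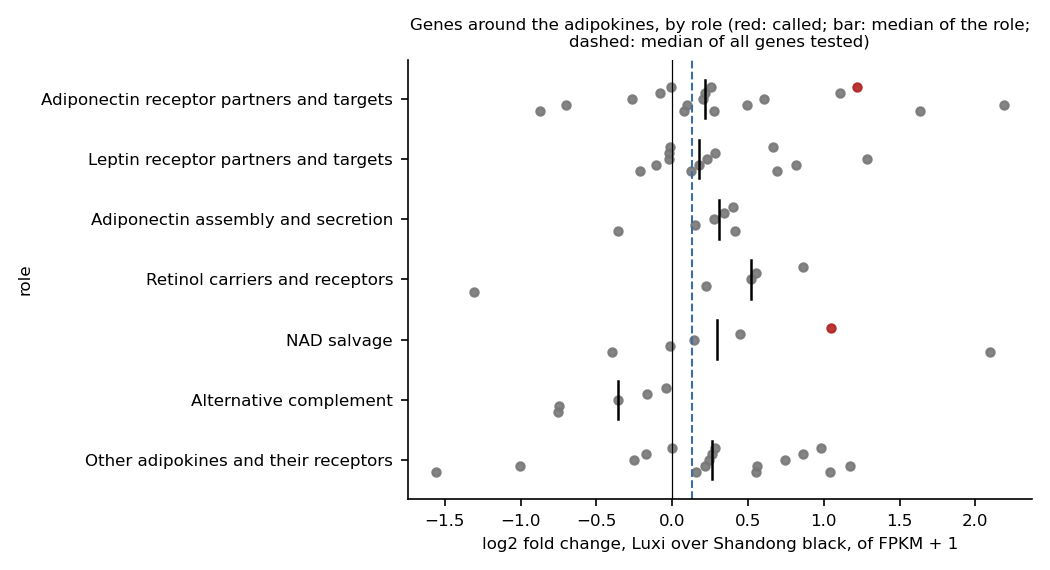
Log2 fold change of FPKM + 1, Luxi over Shandong black (x axis), of the 69 tested genes around the adipokines by role (y axis, points shifted up and down for legibility). The called genes PRKAA2, at 1.22, and NMNAT2, at 1.05, neither of them called with size factors or quantile normalization, are in red, each black bar is the median of a role, and the dashed line is the median of all genes tested, 0.13.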

How the data were processed

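Total RNA of the longissimus dorsi of 3 Shandong black and 3 Luxi cattle was sequenced by the authors, who trimmed the reads with Fastp, aligned them to ARS-UCD1.2 with HISAT and assembled each library with StringTie, version 1.3.3b with a reverse-stranded setting per the file headers, although the kit in the labels is not known to mark strand. The deposited files give coverage, FPKM and TPM for each transcript, in text attributes. Gene FPKM was computed as the sum over annotated transcripts plus same-strand assembled transcripts of which the exons of that gene cover 50% or more. Log2(FPKM + 1) was tested with limma 3.58.1 (trended eBayes) in R 4.3.3 across all genes, with Benjamini-Hochberg adjustment. Single values were compared by an exact permutation test of the difference of means, computed over all splits of the animals. Its adjustment over several genes used scipy 1.17.1. Only the limma fit was tested on simulated data, for the size of the fold changes it returned. Read numbers were estimated from coverage and length as reads of 150 bases and cover counting error only. No counts were analysed here.

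Symbols are those of the files, and the RefSeq table of ARS-UCD2.0 held 91.5% of them. From the list of genes around the adipokines, the text names the called genes and up to 3 others per role with the largest change in size, and it names the 5 genes most like ADIPOQ and ADIPOR2. The genes and lists were chosen with earlier results of these data known. Alternatives covered the pseudocount, the filter, the unit, the scaling, the variance model, limma voom, the replicate number, the transcripts summed, the threshold and leaving out each animal. Spreading the bases over the gene length was added after the data were seen.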

Additional observations from a re-analysis of the deposited data

How the results depend on the processing

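Of the 10 genes, ADIPOQ, RBP4, LEP, ADIG, CFD and ADIPOR1 stayed below 0 and ADIPOR2 and CDH13 above 0 in every setting that gave them a value; LEP, ADIG and CFD fell under the filter in some. ADIPOQ was called in 8 of 12 other settings and in 1 of 6 fits without 1 animal, RBP4 in 11 of 12 and 2 of 6. The 2 calls among the 10 genes became 1 with a pseudocount of 0.1, 1 with voom, 0 without a filter and 0 to 2 with 1 animal left out. All genes called, 252 (151 higher and 101 lower in Luxi cattle, but 115 and 150 with size factors and 124 and 167 with quantile normalization), became 63 without a filter, 137 at a mean FPKM of at least 5, 92 with voom, 163 with reference transcripts only, 67 at a log2 fold change of at least 2 and 3 to 600 with 1 animal left out, the lowest without Shandong black replicate 3 and the highest without Luxi replicate 1. The 2 calls around the adipokines became 1 with a pseudocount of 0.1, 1 at a mean FPKM of at least 5, 1 over the gene length (AGT, lower in Luxi cattle and not one of the 2), 4 with TPM (2 higher and 2 lower), 3 others with size factors and with quantile normalization (AGT, CPT1B and SFRP5, all lower), 0 without a filter, with voom, with reference transcripts only, with assembled transcripts at 90% or at a log2 fold change of at least 2, and 0 to 9 with 1 animal left out. The 5 fat cell calls became 3 with a pseudocount of 0.1, 2 without a filter, 3 with voom and 1 to 8 with 1 animal left out. NAMPT turned to -0.11 with TPM, -0.13 with size factors, -0.14 with quantile normalization, -0.069 with voom, -0.044 with reference transcripts only or with assembled transcripts at 90%, -0.026 over the gene length and ranged from -0.12 to 0.15 with 1 animal left out. The LEP ratio to the fat cell markers turned to -1.35 with a pseudocount of 0.1, -0.25 with TPM and ranged from -0.0096, without Shandong black replicate 2, to 0.32 with 1 animal left out, and with PLIN1 alone the RBP4 ratio turned to 0.92 and the ADIPOQ ratio moved from -2.26 to -0.44. LEPR moved from -0.03 to -0.40 with reference transcripts only. The cause of these changes was not tested.

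With the replicate number as a block, 135 of all genes, 1 of the 10 genes (RBP4, limma adjusted p = 0.0431, while ADIPOQ reached 0.0592) and 1 gene around the adipokines (CRABP2, lower in Luxi cattle) were called. Deviations from the breed means correlated at 0.0775 to 0.0886 between same-numbered animals, each of which correlated best with its own number. The deviations within a breed sum to 0 for each gene, so some matching of the animals can come out positive by construction. These values therefore cannot show a pairing, which was not tested, and same-numbered animals share only a number.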

Other observations

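Some reads at the adipokine loci lay in assembled transcripts that were not added to a gene, because under 50% of their bases were on its exons. At NAMPT, 1 such transcript held about 2524 reads in Luxi replicate 1, 31.5% of the same-strand reads there, and 233 in Luxi replicate 3, while the other 4 animals had none. At ADIG, 96.2 reads in Shandong black replicate 3 and 41.0 in Luxi replicate 1 were in such transcripts, 67.0% and 91.1% of the same-strand reads at the gene, against 0 in the other 4 animals. At LEPR there were 511 in Shandong black replicate 2 and 234 in Luxi replicate 1, against 6 to 49.0 in the other animals. Shandong black replicate 2 and Luxi replicate 1 were also the libraries with the most single-exon assembled transcripts, 71.1% and 70.3% against 61.6% to 65.4%. Transcripts that StringTie placed on the opposite strand held at most 7.74% of the reads at any of the 10 genes. These strands rest on the reverse-stranded setting in the file headers, while the labels name a kit that is not known to mark strand, and which of them applies was not settled.

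The summed FPKM of 8 fibroblast and fibro-adipogenic progenitor genes was 135 to 188 in Shandong black cattle and 377 to 517 in Luxi cattle, and COL3A1, COL1A1 and DCN made up most of it. Of the 8 genes 1 was called (COL3A1, higher in Luxi cattle), where 1.55% of all genes tested were called higher. Every Luxi animal was higher in 4 of the 8 and lower in 1, beside 20.0% and 9.14% of all genes tested. The lower one was DPT, at 6.81 to 9.30 FPKM against 10.2 to 12.3, and PI16 had a log2 fold change of -1.08 with overlapping breeds (limma adjusted p = 0.164). S100B, known from glia and from fat cells, was at 118, 46.8 and 91.5 FPKM in the Shandong black replicates and at 26.6, 5.76 and 21.2 in the Luxi replicates, without overlap and not called (limma adjusted p = 0.0824).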
